A study of Rattus norvegicus with 8 samples.

Results

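The subject is the products of the rat miRNA hairpins mir-193 and mir-365, measured in pancreatic islets of adult and newborn Sprague Dawley rats. They were chosen by array name, as non-control features named for a mature product of either hairpin, any arm. This gave 4 products (rno-miR-193, rno-miR-193*, rno-miR-365 and rno-miR-365*, written without rno from here on) of 677 miRNAs on the array, carried by 10 probes and 80 features. In these array names the asterisk stands for the less abundant strand of the hairpin. Total RNA came from islets of control male rats 3 months old (adult, 4 arrays) and of control rats 10 days old (P10, 4 arrays), whose sex the labels do not give. Each array is labelled as a biological replicate, with no word on how many animals gave its islets, so the spread below is the spread between these arrays. Islets are clusters of hormone-secreting cells, mostly insulin-producing beta cells, and their most studied miRNA, miR-375, was well above background on all 8 arrays. The series title states that the question was the maturation of beta cells.

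A miRNA is cut from a hairpin transcript and guides the silencing complex to messenger RNAs that pair with its seed, the bases 2 to 8 from its 5′ end. Hairpins of the miR-193 and miR-365 families lie close together in mammalian genomes and can be made from a shared primary transcript. In mouse, the miR-193b and miR-365 cluster is known for promoting brown fat cell differentiation and holding back the muscle programme in brown fat precursors. The array names used here are those of the related mir-193 and mir-365 pair, with no product of mir-193b among them. Members of the miR-193 family are also known to repress growth-promoting genes, such as cyclin D1 and Mcl1, in human cancer cells.

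Both products that gave signal are shown here because the comparison rests on them, with miR-193b-3p, a close relative that has no probe under its own name on this array. Sequences are those of RefSeq on the assembly GRCr8, and all 4 array names were matched, taking the unmarked names as the 3p arms and the asterisks as the 5p arms. Capitals mark the seed.
miR-193 (miR-193a-3p): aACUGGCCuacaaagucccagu
miR-193b-3p: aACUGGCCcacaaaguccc
miR-365 (miR-365-3p): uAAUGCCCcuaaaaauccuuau

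miR-193 and miR-193b-3p share their seed, and over the 19 bases that both entries hold they differ by the substitution U9C, counted from the 5′ end. The files do not hold the probe sequences, so signal from miR-193b-3p on the miR-193 probes was not tested. In the RefSeq table, 2 rat entries carry the seed of miR-193, namely these, and 1 carries the seed of miR-365. miR-193 and miR-365 therefore have different seeds, although their hairpins are neighbours. The mir-193 hairpin lies at chr10:65170317-65170402 and the mir-365 hairpin at chr10:65184217-65184302, both on the plus strand of GRCr8 and 13.8 kb apart. The hairpins are printed to show which arms were measured, with both arms in capitals.
mir-193: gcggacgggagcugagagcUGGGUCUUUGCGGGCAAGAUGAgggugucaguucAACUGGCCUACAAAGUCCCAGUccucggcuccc
mir-365: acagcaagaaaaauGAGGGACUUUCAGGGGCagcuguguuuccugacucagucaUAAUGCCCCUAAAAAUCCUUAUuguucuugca

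Signal came from the 3p arms, miR-193 and miR-365. None of the 4 probes of miR-193* was well above background on any array, with signals between -16.4 and 3.63. The same held for both probes of miR-365*, with signals between -12.5 and -1.01. The dimmest probe that the scanner software called well above background had a signal of 17.7 to 36.0, depending on the array. The 5p arms were thus not detected, and no level or difference is given for them. miR-3549, which RefSeq places on the opposite strand of the mir-193 hairpin and which is complementary to its bases 21 to 39, was well above background on 1 of 8 arrays, a P10 array, with its brighter probe.

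Because the pair was chosen with earlier results of these arrays in view, the differences between ages that follow are descriptions, and no test is given for them. All values of miR-193 and miR-365 are signals of the brighter of the 2 probes of each, averaged over up to 10 features, unless said otherwise. Before any scaling, miR-193 had signals of 157, 158, 153 and 129 on adult replicates 1 to 4, against 273, 322, 171 and 273 on P10 replicates 1 to 4. Every adult array was below every P10 array, and P10 replicate 3 lay nearest to the adult arrays. miR-365 had unscaled signals of 141, 123, 164 and 128 on adult replicates 1 to 4, against 136, 160, 181 and 244 on P10 replicates 1 to 4. Here the ages overlapped, and P10 replicate 4 was the brightest. The features of a probe on the same array had a coefficient of variation of at most 15.5% for both miRNAs.

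Arrays differed in overall brightness, so each was divided by the 75th percentile of the 278 probes that were well above background on all 8 arrays. This percentile was 1284 to 1677 on the adult arrays and 388, 440, 989 and 1690 on P10 replicates 1 to 4. The count of miRNAs with a probe well above background was 218 to 262 on the adult arrays. It was 190, 199, 241 and 232 on P10 replicates 1 to 4, so lowest on replicates 1 and 2. The part of these array differences in the values below was not tested. On the resulting log2 scale, miR-193 stood at -3.11, -3.15, -3.46 and -3.32 on adult replicates 1 to 4, against -0.51, -0.45, -2.53 and -2.63 on P10 replicates 1 to 4. The P10 arrays fell into a high pair, replicates 1 and 2, and a lower pair, replicates 3 and 4, which still lay above every adult array. miR-365 stood at -3.26, -3.51, -3.35 and -3.33 on adult replicates 1 to 4, against -1.51, -1.46, -2.45 and -2.79 on P10 replicates 1 to 4. It showed the same order, with replicates 1 and 2 highest and no overlap of the ages.

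**Figure D1:**
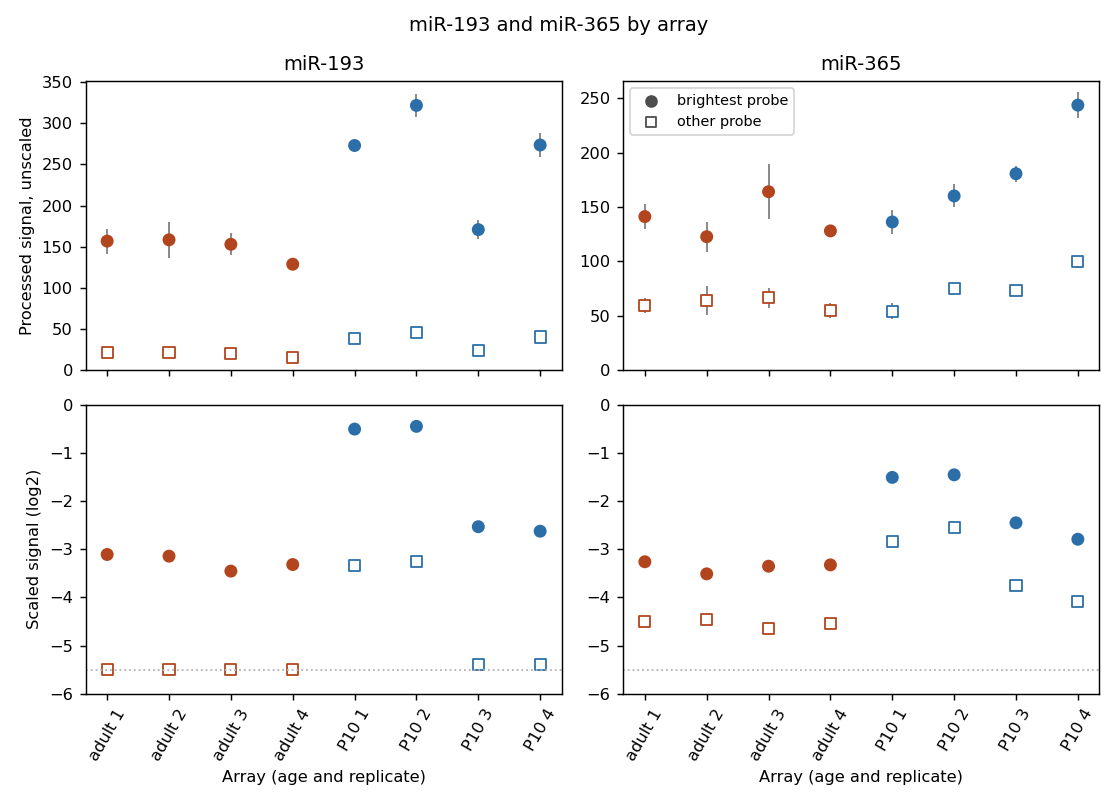
Signals of miR-193 (left) and miR-365 (right) on each array, adult in orange left of P10 in blue. The upper panels show the unscaled processed signal with its SD over the features of the probe. The lower panels show the scaled log2 signal, with a dotted line at the floor of -5.51. Filled circles are the brighter probe and open squares the other. P10 replicates 1 and 2 stand above replicates 3 and 4 in the lower panels for both miRNAs, but not in the upper ones.

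After scaling, miR-193 averaged -3.26 ± 0.16 in adult and -1.53 ± 1.21 in P10 islets (log2, SD, n = 4 each), a difference of -1.73 ± 0.54 (SE from the limma fit over all tested miRNAs), or 3.31-fold lower in adult. miR-365 averaged -3.36 ± 0.11 in adult and -2.05 ± 0.67 in P10 islets (SD, n = 4 each), a difference of -1.31 ± 0.31 (SE), or 2.48-fold lower in adult. Of 238 miRNAs tested, 21 had a more negative difference than miR-193 and 28 a more negative one than miR-365. Next to miR-193 in this order stood miR-199a-5p (-1.75) and miR-93 (-1.72), and next to miR-365 stood miR-466b (-1.39) and miR-25 (-1.30). These gaps to the neighbours are smaller than the SEs of both members. The ages did not overlap for either member, which was so for 45.8% of all tested miRNAs. The threshold for testing was a signal well above background on at least 4 arrays, and both members were above it on all 8.

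After scaling, the spread of miR-193 and miR-365 lay almost wholly within P10. The SD of miR-193 over the P10 arrays was larger than that of 92.9% of the tested miRNAs, and that of miR-365 larger than that of 73.5%, where the median P10 SD was 0.38. In adult, the median SD was 0.11, and the members' SDs of 0.16 and 0.11 exceeded those of 69.7% and 44.1%. P10 replicates 1 and 2 averaged 2.10 above replicates 3 and 4 for miR-193 (4.29-fold) and 1.14 above for miR-365 (2.20-fold). This gap was larger than that of 227 of the 238 tested miRNAs for miR-193 and of 200 for miR-365. Without scaling, P10 replicates 1 to 4 stood at -1.90, -1.66, -2.58 and -1.90 for miR-193 (log2). For miR-365 they stood at -2.90, -2.67, -2.50 and -2.06. The size of the gap, and for miR-365 its direction, thus depended on the scaling. The adult arrays lay 0.68 below P10 replicates 3 and 4 for miR-193 and 0.74 below for miR-365, so with these P10 arrays alone the differences of both members were nearly equal. Both P10 arrays of the high pair stood above both of the lower pair for 39.9% of the tested miRNAs. The full order, with the adult arrays below both pairs, was found for 31 of the 238 miRNAs, among them both members.

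The log2 gap of miR-193 over miR-365 was not constant. It was 0.15, 0.37, -0.10 and 0.0072 on adult replicates 1 to 4, against 1.00, 1.01, -0.081 and 0.17 on P10 replicates 1 to 4. P10 replicates 1 and 2 therefore held more miR-193 relative to miR-365 than the other 6 arrays, a comparison that dividing an array by any factor does not change. Because the probes differ, the gap does not say which miRNA was more abundant.

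After scaling, P10 replicates 1 and 2 also stood apart in the markers of some cell types, and not in those of others. The summed scaled signal of the acinar miRNAs (2 of 3 listed were on the array, miR-216a and miR-217) was 0.195 to 0.397 in adult, against 0.783, 0.632, 0.043 and 0.013 on P10 replicates 1 to 4. On P10 replicate 4 neither acinar miRNA was well above background. The sum of the 3 islet endocrine miRNAs (miR-375, miR-7a and miR-204) was 41.3 to 47.3 in adult, against 11.3, 17.0, 23.7 and 24.0 on P10 replicates 1 to 4, so it was lowest on the P10 pair with the highest miR-193. The sum of the 3 gut epithelium miRNAs (miR-192, miR-194 and miR-215) was 0.258 to 0.486 in adult, against 7.27, 1.11, 13.5 and 2.37 on P10 replicates 1 to 4, and did not follow the pairs. Mesenchymal miRNAs (4 of 4) summed to 4.71 to 6.68 in adult, against 2.89, 3.27, 4.51 and 6.35 on P10 replicates 1 to 4. Of these, miR-143 was the brightest on every array, and it and miR-145 were lowest on P10 replicates 1 and 2. The other members, miR-199a-5p and miR-214, were higher on every P10 array than on any adult array and did not follow the pairs. On P10 replicates 1 to 4 miR-199a-5p stood at -0.78, -0.57, -0.58 and -0.95 (log2), against -2.63 to -2.33 in adult. Endothelial miRNAs (2 of 2) summed to 2.92 to 3.32 in adult, against 2.34, 2.83, 4.43 and 4.71 on P10 replicates 1 to 4. Leukocyte miRNAs (5 of 5) summed to 1.60 to 1.98 in adult, against 1.31, 0.992, 1.74 and 4.07 on P10 replicates 1 to 4. All 3 of these sums were lower on P10 replicates 1 and 2, where miR-193 was highest, than on replicates 3 and 4. The leukocyte miRNAs did not share this order. On P10 replicates 1 to 4 miR-142-3p stood at -2.22, -1.67, -2.07 and 1.36 (log2) and miR-150 at -0.55, -1.95, 0.05 and -0.56. miR-223 did not follow the pairs either, and miR-142-5p was at the floor on replicates 1 to 3. Only miR-146a followed them, at -1.96, -1.86, -1.63 and -1.22. Erythroid miRNAs (2 of 3) summed to 0.250 to 0.652 in adult and 0.139 to 0.252 in P10. Of 6 striated muscle miRNAs, miR-1, miR-133a, miR-206 and miR-208 were at the floor on every array. miR-133b was well above background on the 4 adult arrays and on P10 replicates 3 and 4, and miR-499 on 3 of 4 adult arrays and no P10 array. The 6 summed to 0.084 to 0.131 in adult, against 0.031, 0.029, 0.044 and 0.113 on P10 replicates 1 to 4. All sums were taken under this scaling alone, whose divisor was lowest on P10 replicates 1 and 2. The part of these cell types in the values of miR-193 and miR-365 was not tested, and in whole islets fewer cells of a type and less of a miRNA per cell cannot be told apart.

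After scaling, the second probe of each miRNA gave the same direction. For miR-365 it stood at -4.51, -4.45, -4.65 and -4.54 on adult replicates 1 to 4, against -2.84, -2.55, -3.76 and -4.09 on P10 replicates 1 to 4, a difference of -1.23. Unscaled, it read 59.5, 64.0, 66.7 and 55.2 in adult, against 54.2, 75.3, 73.0 and 99.5 in P10, so the ages overlapped. For miR-193 no adult array had the second probe well above background but all 4 P10 arrays did, where it read -3.34, -3.26, -5.40 and -5.39 after scaling. Each adult array was then counted at the higher of its own signal and the dimmest signal well above background. On that count the scaled mean of this probe was at least 2.83-fold lower in adult. This bound is for means and rests mostly on P10 replicates 1 and 2. Replicates 3 and 4 lay near the floor of -5.51. Unscaled, the probe read 38.5, 46.1, 23.5 and 40.3 on P10 replicates 1 to 4, against 14.9 to 21.7 in adult. After scaling, P10 replicates 1 and 2 were the high pair on both probes of both miRNAs.

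The authors' deposited value table lists miR-193 and miR-365, and neither 5p arm, among its 311 miRNAs. There miR-193 had log2 values of 6.66, 6.71, 6.51 and 6.59 on adult replicates 1 to 4, against 9.11, 9.25, 7.15 and 7.01 on P10 replicates 1 to 4. miR-365 had 6.87, 6.80, 6.83 and 6.81 in adult, against 8.33, 8.51, 7.62 and 7.18 in P10. The order of the arrays in 3 levels was thus also that of the authors' values, whose adult minus P10 differences are -1.51 for miR-193 and -1.08 for miR-365.

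How arrays are made comparable changed the size. Without scaling the difference was -0.77 for miR-193 and -0.35 for miR-365, and with arrays scaled to the labelling spike-ins it was -0.69 and -0.28. In both settings miR-365 overlapped between the ages, and with spike-in scaling miR-193 did so as well. Without scaling the high P10 pair was no longer seen. For miR-193, P10 replicate 4 was as bright as replicate 1. For miR-365 the pairs were reversed, with -2.90, -2.67, -2.50 and -2.06 on P10 replicates 1 to 4. With spike-in scaling they were reversed as well for miR-365 (-5.02, -4.89, -4.64 and -4.10). Cyclic loess over all probes put P10 replicate 4 among or below the adult arrays for both, with differences of -1.20 and -0.66 and overlap of the ages. Both members were lower in adult in each of the settings and left-out replicates that were run. For miR-365 the SE was 0.29 without scaling and 0.34 with spike-ins, so its direction is uncertain there.

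**Figure D2:**
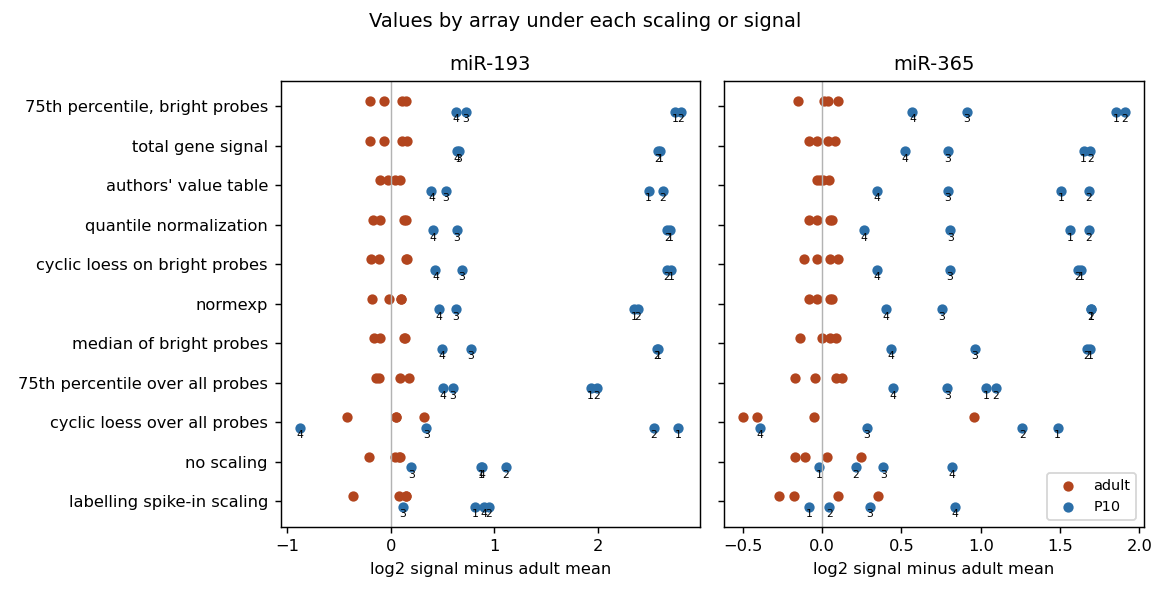
Value of each array minus the adult mean (log2) for miR-193 (left) and miR-365 (right), adult in orange above P10 in blue, with P10 replicate numbers under the points. Each row is a scaling or signal. The P10 pair of replicates 1 and 2 stands apart at the right in most rows, and not without scaling or with the labelling spike-ins.

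The miRNAs whose scaled values ran most like those of miR-193 over the 8 arrays were miR-205 (Pearson r = 0.994), miR-345-5p (0.983), miR-1949 (0.982), miR-25 (0.981) and miR-672 (0.979). For miR-365 they were miR-25 (0.994), miR-500 (0.990), miR-181b (0.987), miR-1949 (0.987) and miR-92a (0.985). miR-193 and miR-365 had r = 0.975 with each other, which placed miR-365 at rank 6 among the miRNAs most like miR-193 and miR-193 at rank 9 among those most like miR-365. These are descriptions of 8 points that share arrays, ages and the scaling factors. Between miR-193 and miR-365, r was 0.45 without scaling and 0.44 with spike-in scaling.

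miR-25, on the lists of both members, is a product of the miR-106b cluster, related to the miR-17 to miR-92 group known for promoting proliferation. It stood at -0.98, -1.05, -1.04 and -1.08 on adult replicates 1 to 4, against 0.87, 0.77, -0.19 and -0.38 on P10 replicates 1 to 4. Its P10 arrays formed the same pairs as those of miR-193 and miR-365. miR-205, known as an epithelial miRNA, was close to the floor on the adult arrays (-5.51 to -5.17), against -3.33, -3.14, -4.95 and -5.05 on P10 replicates 1 to 4.

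**Figure D3:**
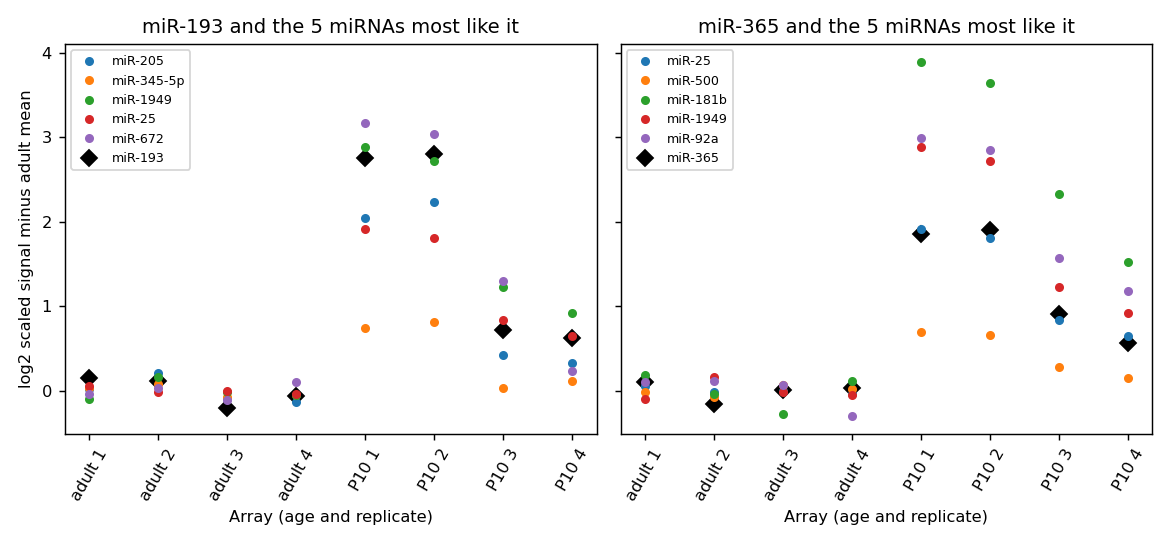
Scaled log2 signal of each array minus the adult mean for miR-193 (left) and miR-365 (right), drawn as black diamonds, with the 5 miRNAs most like each as coloured points. The adult arrays lie left of the P10 arrays. All the miRNAs shown are highest on P10 replicates 1 and 2.

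miRNAs with a described part in brown or beige fat differentiation, the setting in which the miR-193b and miR-365 cluster is best known, moved in both directions. Of 17 listed, 16 were on the array and 14 were tested. In adult islets 4 rose, 4 fell and 6 did not pass (limma, Benjamini-Hochberg adjusted p under 0.05), so 57.1% were called, against 47.5% of all tested miRNAs (27.3% higher and 20.2% lower in adult). The split depended on the scaling, with 4 higher and 1 lower without scaling or with labelling spike-ins, and 8 higher and 4 lower with the percentile taken over all probes. Their median difference was 0.24, against -0.01 over all tested miRNAs.

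Among the listed miRNAs that rose was miR-455, which is known to promote brown fat differentiation in mouse. It rose 2.49-fold (log2 difference 1.31 ± 0.23 SE, n = 4 per age, limma adjusted p = 0.00207), standing at -2.85 to -2.50 in adult, against -4.52, -4.07, -3.68 and -3.48 on P10 replicates 1 to 4. It was well above background on 3 of 4 P10 arrays, and its call was lost with normexp background correction (0.35, limma adjusted p = 0.106) and with cyclic loess over all probes (1.06, limma adjusted p = 0.0853). miR-27b (0.91 ± 0.10 SE) and miR-27a (0.43 ± 0.14 SE), which are known to restrain fat cell differentiation, and miR-30b-5p (0.62 ± 0.12 SE) rose as well. miR-27a lost its call in 17 of 28 alternatives, among them any left-out adult array. miR-27b lost its call with cyclic loess over all probes (0.31). miR-30b-5p lost its call with that setting (0.11), with curves fitted on bright probes (0.25) and with quantile normalization (0.28). miR-455* and miR-133b, the largest differences that did not pass, had limma adjusted p of 0.150 and 0.0728. In 4 of 27 alternatives, among them the one without P10 replicate 4, miR-133b gained a call, and miR-455* did in 2 of 27. Each was well above background on 2 of 4 P10 arrays, so no size is given.

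miR-378, an intronic miRNA of Ppargc1b known from fat and energy metabolism, fell 2.98-fold in adult (-1.58 ± 0.34 SE, n = 4 per age, limma adjusted p = 0.00613). It stood at -3.99 to -3.85 in adult, against -1.70, -2.47, -1.85 and -3.37 on P10 replicates 1 to 4, so that its P10 arrays did not form the pairs seen for miR-193. Its call was lost without scaling (-0.62, limma adjusted p = 0.203) and with labelling spike-ins (-0.54, limma adjusted p = 0.285). miR-93 (-1.72 ± 0.18 SE) and miR-106b (-1.16 ± 0.16 SE), which share a cluster with miR-25, fell too, and their P10 arrays formed the same pairs as those of miR-193. Both calls were lost under cyclic loess over all probes (-1.20 for miR-93 and -0.88 for miR-106b), without scaling (-0.76 and -0.20) and with labelling spike-ins (-0.68 and -0.13). miR-203, an epithelial miRNA that is enriched in mouse brown fat, also fell, but 3 of 4 adult arrays were at the floor, so no size is given. With P10 replicates 3 and 4 alone, 10 of the 14 passed. Cyclic loess over all probes left 1, miR-378.

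**Figure D4:**
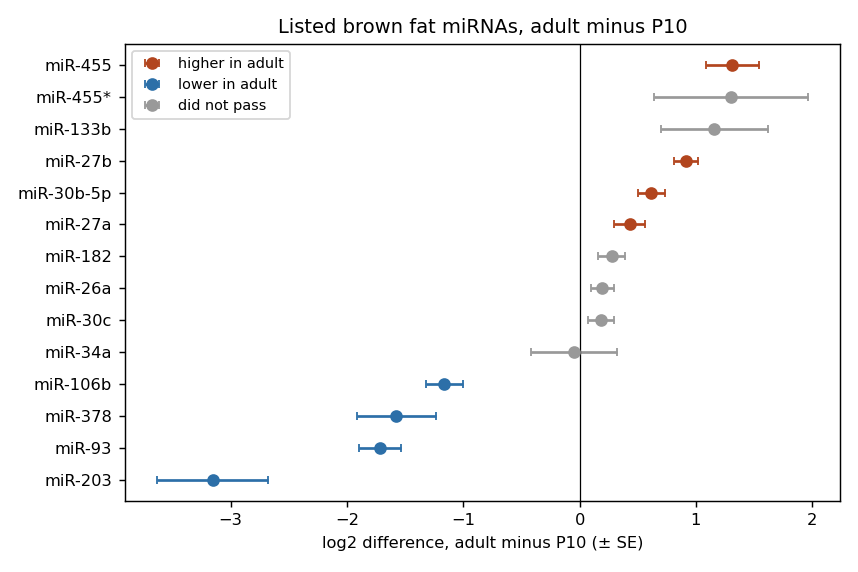
Adult minus P10 log2 differences with their SE for the 14 tested miRNAs of the brown fat list, in order. Orange marks those called higher in adult, blue those called lower and grey those that did not pass (limma adjusted p under 0.05), among them miR-455* and miR-133b, both of which lay near background on 2 of 4 P10 arrays.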

How the data were processed

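Per the labels, islet RNA of 8 samples was labelled with cyanine 3 for Agilent miRNA arrays. The deposited scanner files hold background-subtracted intensity values, made, per the file headers, with version 10.7.3.1 of Agilent Feature Extraction. The authors' deposited table holds log2 values. The sources used here do not say how it was made. Its column for adult replicate 1 has a median of 6.54.

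Outlier features (2.34% to 3.65% per array) were left out, features of a probe averaged, arrays scaled to the 75th percentile of 278 bright probes, values raised to a floor of -5.51 and log2 taken. A probe was well above background where most of its features were. Each miRNA was represented by its brightest probe. The comparison used limma 3.58.1 (R 4.3.3) with adult minus P10 as the contrast and no block, over 238 miRNAs, Benjamini-Hochberg adjusted. The limma step was tested on simulated data. The number of arrays limits the precision.

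The members and lists were chosen with earlier results of these data known. Named were all members, listed miRNAs that passed, the 2 largest listed differences that did not, the 5 miRNAs most like each member, neighbours in the order of differences, and markers. Listed miR-155, miR-216b and miR-486 had no probe of that name and were not analysed here. All arrays shared 1 slide and 1 scan, with each age in its own slide column, so column and age cannot be told apart. Same-numbered adult and P10 arrays correlated in their deviations from the age means at 0.18, -0.09, 0.48 and -0.23 for replicates 1 to 4, so the numbers were not taken as pairs. No array was a copy of another (highest correlation 0.997). Normexp used median signals. Alternatives changed the scaling, background, signal, filter, probe summary, outliers, floor, array weights, variance model, replicate block or arrays used.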

Additional observations from a re-analysis of the deposited data

Results flagged for a closer look

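Among 27 groups of 4 arrays checked for a sample far from the others, 2 stood out, where chance gives about 1 in 20. No group of miR-193 or miR-365 was among them, but this check looks for 1 array apart. It cannot flag a split of 2 against 2 such as theirs in P10. For miR-203 in adult, replicate 3 was at -5.32 while the other adult arrays were at the floor (gap over range 1). For miR-133b in P10, replicate 4 was at -3.47, against -5.22 on replicate 3 and the floor on replicates 1 and 2 (gap over range 0.86).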

How the results depend on the processing

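miR-193 and miR-365 were lower in adult under every alternative run. The SE of miR-365 was 0.29 without scaling, 0.34 with labelling spike-ins and 0.50 with cyclic loess over all probes, so its direction is uncertain there. Under that loess the SE of miR-193 was 0.80. Leaving out each array in turn gave -2.09 to -1.37 for miR-193 and -1.56 to -1.11 for miR-365. The differences moved by more than the spread between replicates to -0.77 and -0.35 without scaling, to -0.69 and -0.28 with labelling spike-ins and to -0.68 and -0.74 with P10 replicates 3 and 4 alone, a setting chosen after seeing the data. For miR-365 they also moved to -1.80 with array weights and, under cyclic loess over all probes, to -0.66. Array weights took miR-193 to -2.58, its largest difference in any setting. That shift stayed within its own wide spread between replicates (pooled SD 0.87). Of the brown fat list, 8 miRNAs passed, and 5 did without scaling, 5 with spike-ins, 1 with cyclic loess over all probes and 7 to 9 with an array left out. Of all tested miRNAs, 113 passed (65 higher, 48 lower), and 64 did with spike-ins (55 higher, 9 lower), 31 with cyclic loess over all probes (10 higher, 21 lower), 179 with array weights and 84 to 138 with an array left out. The split was 90 to 34 with the percentile over all probes, 61 to 17 without scaling and 33 to 47 with normexp. The median difference of all tested miRNAs was 0.45 with the percentile over all probes, 0.94 without scaling, 1.01 with spike-ins, -0.28 with normexp, 0.16 with cyclic loess over all probes and 0.24 with curves fitted on bright probes. miR-133b turned to -0.089 with normexp. The correlation of miR-193 with miR-365 moved to 0.76 with cyclic loess over all probes. With the replicate number as a block, 95 miRNAs passed and 7 of the list, miR-27a losing its call. The cause of these shifts was not tested. Signal near background limits miR-203, miR-205, miR-455, miR-455*, miR-133b and the dimmer miR-193 probe.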
